A study of Homo sapiens with 2 samples.

Results

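The promoters of 4 genes, TMEM74, NAT1, ZNF358 and FSD1, carried a clear H3K4me3 peak in wild-type HEC-1-B cells and a weak peak or none in ZNF143 knockout cells. The members are the called regions inside 4 hg19 windows: chr8:109797000-109802000 for TMEM74, chr8:18065000-18071000 for NAT1, chr19:7578500-7584000 for ZNF358 and chr19:4302000-4307000 for FSD1. The windows held 4 of the 20567 regions of the wild-type list and 3 of the 20509 regions of the knockout list. The windows were selected on the fold and fold percentile of these same lists, which were lower in the knockout or had no knockout value, so the difference between genotypes in them is a description and carries no test. The gene names come with the windows. The lists hold no gene names, and no hg19 annotation was used here, so exon and intron positions are not given and the cell line label was not checked against marker genes.

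The mark was mapped by ChIP-seq, in which DNA bound to the marked histone is pulled down with an antibody and sequenced. The cells were HEC-1-B, a widely used human uterine adenocarcinoma line. The groups were wild-type cells and cells labelled as a ZNF143 knockout, with 1 library each and no drug treatment named in the labels. Both were grown in the same serum-supplemented medium. The labels do not say how the knockout was made or whether it is 1 clone, and with 1 library per genotype no difference below has a replicate check.

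H3K4me3 is placed on nucleosomes that flank the start sites of active or poised genes, mostly in promoters rich in CpG dinucleotides. ZNF143 is a zinc-finger transcription factor that binds promoters through a long motif close to start sites. The studied genes have unrelated known roles. TMEM74 encodes a membrane protein of lysosomes and autophagosomes. NAT1 encodes arylamine N-acetyltransferase 1, a drug-metabolising enzyme. ZNF358 encodes a C2H2 zinc-finger protein. FSD1 encodes a protein with fibronectin type III and SPRY domains that associates with microtubules.

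RefSeq promoter sequences (GRCh38.p14) were matched by symbol for 2 of the 4 genes, ZNF358 and FSD1. They are shown because both hold the same spaced pair of short stretches next to the start. Each sequence is the 250 bases before the RefSeq start, on the plus strand, at chr19:7515853-7516102 for ZNF358 and chr19:4304348-4304597 for FSD1. These GRCh38.p14 positions cannot be set against the hg19 positions of the peaks. Capitals mark ACTACA followed, after any 2 bases, by TCCCAG.
ZNF358: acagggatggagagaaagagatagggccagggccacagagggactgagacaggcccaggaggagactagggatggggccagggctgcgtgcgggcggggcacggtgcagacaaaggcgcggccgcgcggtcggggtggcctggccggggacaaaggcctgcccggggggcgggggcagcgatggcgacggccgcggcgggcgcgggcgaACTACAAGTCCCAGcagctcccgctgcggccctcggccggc
FSD1: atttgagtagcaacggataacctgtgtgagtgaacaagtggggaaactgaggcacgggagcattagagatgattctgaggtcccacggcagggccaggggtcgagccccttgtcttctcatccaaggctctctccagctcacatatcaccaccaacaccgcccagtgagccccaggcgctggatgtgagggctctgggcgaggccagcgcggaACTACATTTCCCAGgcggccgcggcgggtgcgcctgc
The match began 41 bases before the start in ZNF358 and 37 bases before it in FSD1, on the strand of the gene in both. The spaced pair is a form of the ACTACA motif that ZNF143 is known to bind. It was chosen after the sequences were read, so the 2 matches are a description. Of the 35116 promoter entries in the table, each 300 bases long, 359 (1.02%) held the spaced pair on either strand. ACTACA, which lies inside it, occurred on either strand in 8.46% of entries and TCCCAG in 33.3%. Among the 3 protein-coding genes on each side of ZNF358 and of FSD1 in the GRCh38.p14 gene order, 10 of 12 had promoter entries, 16 entries in all, and 0 of these genes had a match. At a share of 1.02%, most sets of 16 entries would hold 0 matches, so this count does not set the members apart. GC content over the 300 bases was 76.3% for ZNF358 and 64.0% for FSD1, against a median of 58.7% over all entries. The ZNF358 promoter held 32 CpG dinucleotides and the FSD1 promoter 25, against a median of 14. Both thus lay above the median entry in GC content and CpG count. By GC content ZNF358 stood at percentile 92.6 of all entries and FSD1 only at percentile 64.0.

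The strength of a peak was read as its summit pileup, that is, how many fragments overlap at its highest point. It was solved from the fold and −log10 p that the authors deposited. The knockout library was the deeper: its lowest background rate was 3.25 fragments per base against 1.40 in the wild-type library, and its regions had a median pileup of 355 against 197. Across the 16501 regions paired one to one between the lists, the median knockout pileup was 1.86 times the wild-type pileup. Each log2 ratio below is centred on that median, so 0 stands for the typical pair. The windows were selected on fold, from which the pileup is solved, so ranks of the members by this ratio are descriptions. Intervals are exact Clopper-Pearson 95% intervals from the pileups and cover counting error only.

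TMEM74 had the lowest centred ratio of all pairs. Its wild-type region, chr8:109799187-109800130, had a pileup of 167 fragments, with a deposited fold of 21.1, a −log10 p of 164.0 and a −log10 q of 160.9. The knockout region, chr8:109799626-109799800, had a pileup of 16 fragments, with a fold of 4.00, a −log10 p of 7.18 and a −log10 q of 4.92. A region that followed the median pair would have had about 310.4 fragments in the knockout. The centred log2 ratio was −4.28 (95% interval −5.12 to −3.54), or 19.4-fold lower than the typical pair. The next lowest pair, chr3:50328748-50329878, had a ratio of −4.21. This lies inside the TMEM74 interval, so the lowest place is not resolved by counting error. The TMEM74 knockout summit lay 66 bp from the start of its region and the wild-type summit 535 bp from its own, which put them 30 bp apart.

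NAT1 had the strongest wild-type peak of the 4 promoters. Its region, chr8:18067380-18068251, had a pileup of 189 fragments, a fold of 26.3, a −log10 p of 203.7, a −log10 q of 200.4 and a summit 357 bp from its start. In the knockout, chr8:18067638-18067901 had a pileup of 22 fragments, a fold of 5.41, a −log10 p of 11.99, a −log10 q of 9.69 and a summit 94 bp from its start. The centred log2 ratio was −4.00 (95% interval −4.71 to −3.36), which is 15.97-fold lower than the typical pair, and 2 of the 16501 pairs had a lower one. The summits lay 5 bp apart, so what remained of the peak stood at the same place. The intervals of TMEM74 and NAT1 overlapped, and their order is not resolved by counting error.

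ZNF358 kept a weak region at one edge of the wild-type peak. The wild-type region, chr19:7580676-7581701, had a pileup of 123 fragments, a fold of 18.9, a −log10 p of 117.1, a −log10 q of 114.2 and a summit 680 bp from its start. The knockout region, chr19:7580717-7581055, had a pileup of 17 fragments, a fold of 4.24, a −log10 p of 7.93, a −log10 q of 5.66 and a summit 105 bp from its start. The centred log2 ratio was −3.75 (95% interval −4.57 to −3.01), or 13.45-fold lower than the typical pair, and 6 pairs had a lower one. The knockout summit lay 534 bp towards lower coordinates from the wild-type summit, which is outside the knockout region. Summits moved by a median of 18 bp over all pairs, and 162 pairs (0.982%) moved by 534 bp or more. The 2 pileups of ZNF358 therefore do not come from the same point of the promoter.

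FSD1 had a region in the wild-type list only. It lay at chr19:4304372-4304945, with a pileup of 69 fragments, a fold of 24.5, a −log10 p of 82.1, a −log10 q of 79.4 and a summit 343 bp from its start. The nearest knockout region was 19.3 kb away. At the ratio of the median pair its knockout pileup would have been about 128.3 fragments, whereas the lowest pileup that the knockout list holds is 11. No ratio is given, because the list shows only called regions, and a weak signal at FSD1 was not detectable in it. Of all 19782 wild-type regions on the assembled chromosomes, 910 (4.6%) had no knockout region within 1 kb, and their median pileup was 12. Of the 14129 regions with at least the FSD1 pileup, 16 (0.113%) had none, FSD1 included.

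**Figure D1:**
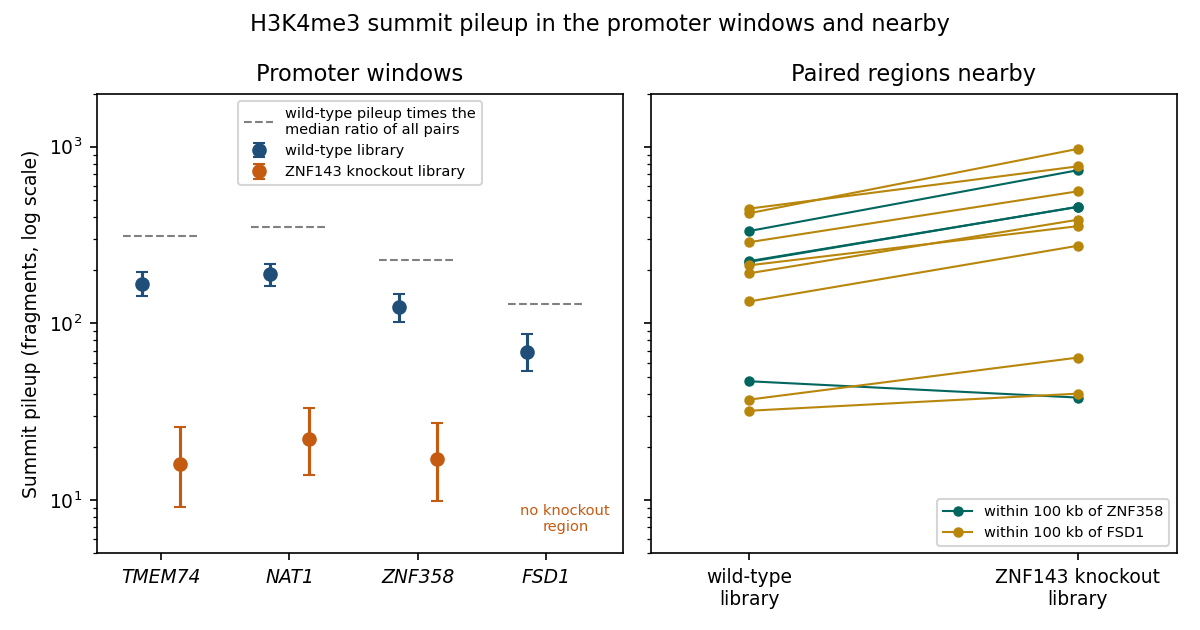
Left, summit pileup in fragments (log scale) of the region in each promoter window, with 1 point per library and exact Poisson 95% intervals for counting error; dashed lines show the wild-type pileup times 1.86, the median ratio of all pairs. Right, the 12 paired regions within 100 kb of ZNF358 or FSD1, with 1 line per pair. The 3 knockout points stand at 16 to 22 fragments, below their wild-type points at 123 to 189, while 11 of the 12 nearby pairs are higher in the deeper knockout library, as are 97.2% of all pairs.

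By rank within their own lists, the 4 wild-type promoters stood high by fold and in the middle by pileup. The fold percentile in the wild-type list was 94.5 for TMEM74, 98.9 for NAT1, 89.1 for ZNF358 and 98.2 for FSD1. By pileup the percentiles were 45.9, 48.9, 39.5 and 28.7 in the same order of genes. In the knockout list the fold percentiles were 10.0 for TMEM74, 18.8 for NAT1 and 11.6 for ZNF358. These are the 3 largest falls in fold percentile among the pairs, and 22 pairs (0.133%) fell by over 50 points. The windows were selected on this measure, so the rank of the 3 falls follows from that choice. The smallest of the 3 falls was 77.5 points, at ZNF358. The pairs that follow are outside the windows: chr9:134152669-134153610 fell by 75.5 points, chr15:52043577-52044425 by 73.2 points and chr9:99637823-99638577 by 70.9 points. ZNF358 is thus not set apart from the next pairs by its fall in rank.

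At the 3 paired promoters the difference was smaller by fold than by pileup. The background rate in the denominator of the fold was lower in the knockout as well. Which of the 2 measures is nearer to the change in the mark was not tested. The local rate, the number of fragments per base that the peak caller compared the summit with, was 6.94 for TMEM74, 6.23 for NAT1, 5.57 for ZNF358 and 1.85 for FSD1 in the wild-type library. Relative to the genome rate of that library these are 4.95, 4.44, 3.96 and 1.32 times. In the knockout library all 3 regions had the genome rate itself, 3.25 fragments per base. This is the lowest rate in the knockout list, and 2851 of its regions (14.5%) had it. Of the 12029 pairs with a wild-type rate of at least that of ZNF358, 10 (0.0831%) had the genome rate in the knockout, these 3 among them. The rate is solved from the same columns as the pileup, and if no control library was used it holds the fragments of the peak itself, so it is not a separate observation. With fold in place of pileup, the centred log2 ratios were −2.35 for TMEM74, −2.23 for NAT1 and −2.11 for ZNF358.

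**Figure D2:**
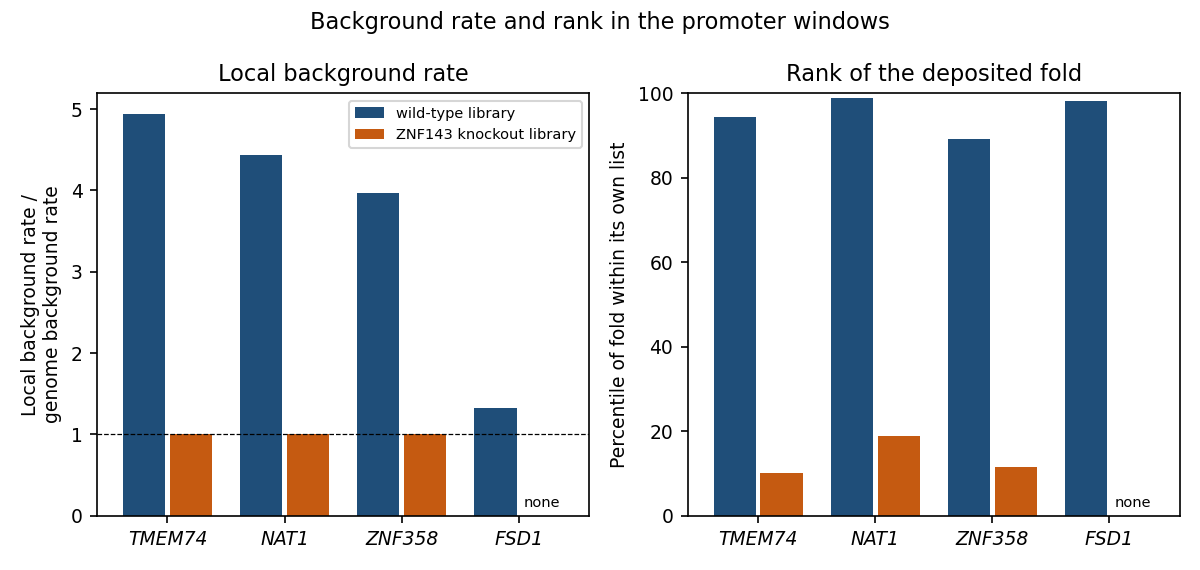
Left, local background rate of each promoter region divided by the genome background rate of its library (dashed line, 1). Right, percentile of the deposited fold within its own list. Wild-type rates are 3.96 to 4.95 times the genome rate at TMEM74, NAT1 and ZNF358 and 1.32 times at FSD1. The knockout rates are at 1, the lowest value in their list, and the FSD1 window has no knockout bar.

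The called regions were also narrower in the knockout. The TMEM74 region was 944 bp wide in wild-type cells and 175 bp wide in the knockout, whose narrowest region of all was 174 bp. The NAT1 region measured 872 and 264 bp, and the ZNF358 region 1026 and 339 bp. The FSD1 region measured 574 bp in the wild-type list. The knockout regions were 18.5%, 30.3% and 33.0% as wide as the wild-type regions for TMEM74, NAT1 and ZNF358, while the median pair was 1.06 times as wide in the knockout. Each knockout region lay wholly inside the wild-type region. At TMEM74 and NAT1 the wild-type region reached further on both sides, by 439 and 330 bp and by 258 and 350 bp. At ZNF358 it reached further by 41 bp on the side of lower coordinates and by 646 bp on the other, so the missing part was nearly all on one side. Width depends on pileup, since fewer bases of a weak peak pass the threshold of the caller, and it is not a separate measure of the promoter.

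**Figure D3:**
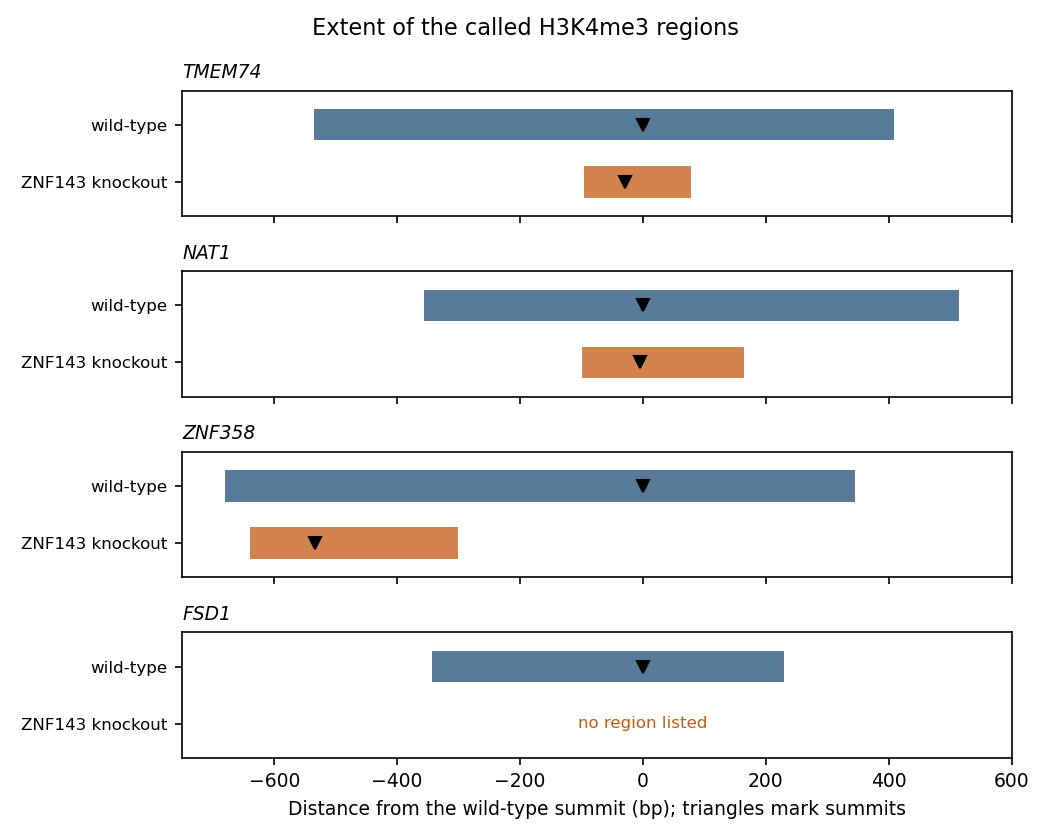
Extent of the called region in each promoter window as bars, by library, with the horizontal axis giving the distance in bp from the wild-type summit and triangles marking summits. The knockout bars of TMEM74 and NAT1 sit around the wild-type summit, that of ZNF358 lies wholly to its left with a summit 534 bp away, and FSD1 has no knockout bar.

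Regions within 100 kb of the windows served as local controls, and they were taken by position. The counts here cover only pairs called in both lists, so a region lost in the knockout could not count as lower. The wild-type region chr19:4327942-4328212 near FSD1, with a pileup of 31 and no knockout partner, is therefore left out of them. There were 12 one-to-one pairs, 4 around ZNF358 and 8 around FSD1. A pair was called lower at a centred log2 ratio of −1 or less, which is 2-fold below the median pair, and 327 of the 16501 pairs (1.98%) met this. Of the 12 local pairs 1 met it. By other rules, 2 of 12 lay at −0.5 or less (8.45% of all pairs), 0 of 12 at −1 or less by fold (0.576%), 1 of 12 under a reciprocal overlap of 50% (1.71%) and 1 of 12 at a −log10 q of at least 5 in both lists (1.7%). Their median centred ratio was 0.09, with 7 above 0 and 5 below, they ranged from −1.20 to 0.32, and the counting interval covered 0 in 9 of them. The ratio of knockout to wild-type width ran from 0.981 to 1.54, with a median of 1.06.

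Around ZNF358, the nearest pair was also the strongest. The region chr19:7587487-7588270, 3.49 kb above the window, had 333 fragments in wild-type cells and 736 in the knockout, folds of 27.3 and 27.2, and a centred ratio of 0.25 (95% interval 0.06 to 0.44), the highest at this locus. The pair called lower was chr19:7570511-7571076, 7.42 kb below the window, with pileups of 47 and 38, folds of 12.95 and 9.09, −log10 q values of 38.9 and 25.1, and a centred ratio of −1.20 (−1.86 to −0.55). The other 2 pairs had centred ratios of 0.14 and 0.12. The knockout list held 2 weak regions with no wild-type partner, chr19:7515390-7515867 with a pileup of 22 and chr19:7565817-7566031 with a pileup of 21. The gene order of GRCh38.p14 has MCOLN1, a lysosomal cation channel gene, and PNPLA6 after ZNF358, and SAXO5 and PEX11G before it. No region was assigned to them.

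Around FSD1, no pair was called lower. The strongest wild-type region was chr19:4399564-4400526, with pileups of 446 and 774, folds of 8.77 and 7.79 and a centred ratio of −0.10. The nearest pair, chr19:4284732-4284967, lay 17.0 kb below the window, with pileups of 32 and 40, folds of 13.7 and 9.65 and a centred ratio of −0.57 (−1.28 to 0.15), the lowest at this locus. The highest was chr19:4402630-4403522, with pileups of 420 and 972 and a centred ratio of 0.32 (0.15 to 0.48). A wild-type region with a pileup of 31 at chr19:4327942-4328212 and a knockout region with a pileup of 17 at chr19:4369007-4369726 had no partner. The 6 local regions with over 100 wild-type fragments thus lay between −0.16 and 0.32. Of these only chr19:4246649-4247364 lay below the window, 54.6 kb away. The weaker pairs, both below the window, had ratios of −0.57 and −0.10. In the GRCh38.p14 gene order FSD1 stands between TMIGD2 and STAP2.

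TMEM74 and NAT1 had no other region within 100 kb in either list, so no local control exists at that distance. For TMEM74 the nearest region below lay 340.0 kb away, with 354 fragments in wild-type cells and 527 in the knockout. The nearest above, 262.2 kb away, had pileups of 30 and 21 and a centred ratio of −1.41, and it was the only one-to-one pair within 500 kb. For NAT1 the nearest pair lay 122.3 kb below, with pileups of 291 and 429 and a centred ratio of −0.33. The remaining 2 pairs within 500 kb of NAT1 had pileups of 480 and 632 (centred ratio −0.50) and of 15 and 80 (1.52). Both promoters therefore stood alone in their stretch of chromosome 8. By pileup, that chromosome as a whole lay lower in the knockout, with a median centred ratio of −0.35 over 604 pairs and 4.47% of pairs called lower, against 0.04 and 1.92% on chromosome 19. By fold the chromosome was not lower, with medians of −0.01 on chromosome 8 and −0.02 on chromosome 19. Centred on their own chromosome, the ratios were −3.93 for TMEM74, −3.65 for NAT1 and −3.79 for ZNF358. With this centring ZNF358 lay below NAT1, so the order of these promoters depends on the centring.

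The 3 paired promoters were then set beside pairs of like strength. In the 3404 pairs with a wild-type pileup of 69 to 189, the span of the 4 members, the median centred ratio was 0.03, and the percentiles 1 and 99 were −1.40 and 1.07. A ratio below −3 occurred in 6 of them, the 3 promoters and 3 regions outside the windows, and in 14 of all 16501 pairs. The 3 promoters were selected on fold, from which the pileup is solved, so their low place among these pairs was preselected. Among the 11250 pairs with a wild-type pileup of at least 100, of which 117 (1.04%) were called lower, the 5 lowest ratios were those of TMEM74, NAT1 and 3 regions outside the windows. These were chr3:50328748-50329878 with pileups of 556 and 56 and a ratio of −4.21, chr2:37551095-37552460 with 241 and 29 and a ratio of −3.95, and chr8:63950774-63951790 with 255 and 33 and a ratio of −3.84. ZNF358 was the seventh lowest. The chromosome 2 and chromosome 8 regions had the genome rate of 3.25 in the knockout, as the 3 promoters did, and the chromosome 3 region had a rate of 4.56.

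**Figure D4:**
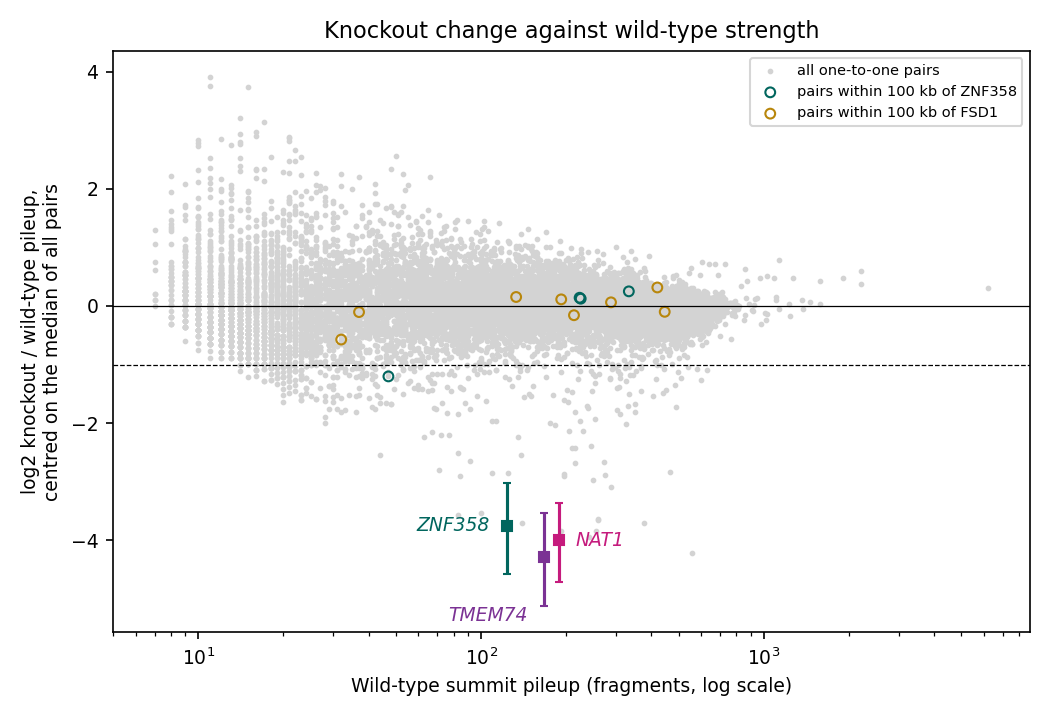
Each grey point is 1 of the 16501 one-to-one pairs, placed by wild-type summit pileup (fragments, log scale) and by the log2 of knockout over wild-type pileup, centred on the median of all pairs; the dashed line is −1. Squares with exact 95% counting intervals mark TMEM74 (−4.28), NAT1 (−4.00) and ZNF358 (−3.75), and open circles mark the local pairs, of which 1 of 12 lies below the dashed line. FSD1 has no knockout region and is not plotted.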

How the data were processed

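H3K4me3 ChIP-seq peak lists of 1 wild-type and 1 ZNF143 knockout library were used, grouped by the genotype label. The submitters' processing notes name Bowtie2, SAMtools 1.12, MACS2 and deepTools and the build hg19; parameters and a control library are not given in the sources used here. The authors deposited 10-column lists with a fold, a ratio of the summit to local background, and −log10 p and −log10 q values, which are theirs; the deposited score column was not used. Starts are given counted from 1.

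A whole-number pileup and a local rate were solved for each region from fold = (pileup + 1)/(rate + 1) and the Poisson tail; the relative error of −log10 p was at most 2.67e-05. Tested on simulated data, the solver returned 100% of pileups in each list (19782 wild-type, 19647 knockout regions). The comparisons used chromosomes 1 to 22, X and Y, which left out 785 and 862 others; pairs overlapped by at least 1 bp with 1 partner each. Total reads were not used, so depth is known only through the background rates. No test between genotypes was made. The regions named were the members, at each locus the strongest, nearest, lowest, highest and unpaired neighbours, the 5 lowest ratios and the next 3 falls in rank, plus, chosen after their values were known, the 4 regions of the closing section. Members and lists were chosen with earlier results of these data known. The work ran in Python 3.11.15 with scipy 1.17.1, matplotlib 3.10.9, pandas 2.3.3 and numpy 2.4.6.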

Additional observations from a re-analysis of the deposited data

How the results depend on the processing

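No paired analysis was possible because there is 1 library per genotype, so none could be left out either. The ratios of TMEM74, NAT1 and ZNF358 stayed within their counting intervals when centred on their own chromosome, when scaled by the genome background rates, and with the region of highest fold in the window, which was the same region. The centring and the scaling only shift the ratios by a constant. The intervals cover counting error only, so staying inside them is no check on the scaling. Centring on pairs within 100 kb could be run for ZNF358 alone and gave −3.88. With fold in place of pileup the ratios were smaller in size, −2.35, −2.23 and −2.11, since the local rate in the denominator of the fold was lower too. FSD1 gave no ratio under any setting, because the knockout list has no region there. The count of local pairs called lower, 1 of 12, was 2 of 58 within 500 kb, 2 of 12 at a centred ratio of −0.5 or less and 0 of 12 by fold. It was 1 of 7 within 50 kb, and 1 of 12 under a reciprocal overlap of 50% and at a −log10 q of at least 5. The −log10 q minimum of 5 would also leave out the TMEM74 pair, whose knockout value was 4.92. Knockout pileups of 16 to 22 fragments limit the precision of each ratio.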

Other observations

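There were 16 wild-type regions with at least the FSD1 pileup and no knockout region within 1 kb. The cut is the FSD1 pileup itself, so FSD1 is the lowest of them by construction. The 4 of highest pileup were chr1:45965959-45966589 with 265 fragments and a fold of 14.1, chr3:196625614-196625778 with 237 fragments and a fold of 42.6, chr8:145047384-145048030 with 202 fragments and a fold of 6.07, and chr1:45965128-45965698 with 188 fragments and a fold of 10.1. The chromosome 1 regions lay less than 1 kb apart. The chromosome 3 region was 165 bp wide, against 162 bp for the narrowest wild-type region. By fold, FSD1 was the second of the 16, after the chromosome 3 region. Its window was selected on fold, so this rank is a description. The 4 regions of highest pileup were picked once their values were known, and no gene was assigned to them.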
